A study of Homo sapiens with 12 samples.

Results

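Isolated GATA1-only intervals are the places where a control K562 GATA1 peak list had an interval, the TAL1 list had none, and no other interval of either list lay within 12.5 kb on any side. There were 6008 of them among 24654 distinct nuclear intervals of both lists (24.4%). They made up 26.4% of the 22769 GATA1 intervals (95% exact binomial interval 25.8 to 27%) and 38.2% of the 15740 GATA1 intervals without TAL1 (37.4 to 38.9%). They were chosen by presence in the GATA1 list, absence from the TAL1 list and distance to the nearest interval, so these counts and distances describe the choice and were not tested. Of the 6008, 16 had no interval of either list beyond them towards 1 end of the chromosome.

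K562 is a human erythroleukemia line with erythroid features, grown as 1 cell line with no separate donors. The series holds 12 chromatin immunoprecipitation and sequencing (ChIP-seq) libraries from control cells and from cells in which GATA1 or TAL1 was knocked down by short hairpin RNA from lentiviral vectors, with never more than 1 library per antibody and condition. The 2 libraries used here both come from control cells, 1 with the GATA1 antibody and 1 with the TAL1 antibody, and the other 10 were not analysed here. The title of the TAL1 library also carries the mark Sp, which that of the GATA1 library lacks. Any part of what this mark stands for in the lists was not tested. The lists give the start and end of each interval on the hg19 build and no height, p-value or read number, so the depth is unknown, and the marker genes of the cells cannot be read from them.

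GATA1 is a zinc finger transcription factor that red cell and megakaryocyte precursors need, and it recognises GATA sequences in DNA. TAL1, of the basic helix-loop-helix family, pairs with E proteins at E-box sequences and is brought together with GATA1 by the bridging proteins LMO2 and LDB1. This assembly is known from erythroid enhancers, among them the locus control region of the beta-globin genes. GATA1 also binds many places where that assembly is not found, with other partners such as the cofactor FOG1, encoded by ZFPM1.

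Each value below has 1 library behind it for each factor. Intervals in parentheses are therefore exact (Clopper-Pearson) 95% intervals for shares, and order-statistic 95% intervals for medians, with intervals of the lists as units. They cover variation over these units, not between cultures, and no p-value is given. A GATA1 interval without TAL1 is one that the TAL1 list does not hold: TAL1 below the detection limit of that library and no TAL1 at all cannot be told apart.

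The choice of 12.5 kb left intervals of the same kind on both sides of it. The members nearest to the limit were a pair of neighbours on 5q21.3, chr5:108071583-108071817 (235 bp) and chr5:108084323-108084876 (554 bp), with a gap of 12.505 kb between them, followed by chr11:46867254-46867422 (169 bp) at 11p11.2 with a gap of 12.507 kb. Just outside were the GATA1-only intervals chr1:230222080-230222324 (245 bp) at 1q42.13 and chr7:22707289-22707628 (340 bp) at 7p15.3, each with a neighbour at 12.494 kb, and chr18:19266303-19266862 (560 bp) at 18q11.2, with 1 at 12.485 kb.

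Isolated GATA1-only intervals were narrower than isolated intervals that carried both factors, and wider than GATA1-only intervals with a closer neighbour. Their median width was 294 bp (288 to 299 bp), with quartiles at 188 and 426 bp and a range from 85 to 1163 bp. The 2251 isolated shared intervals had a median of 404 bp (394 to 411 bp), and the 858 isolated TAL1-only intervals 307 bp (297 to 317 bp). Among intervals with a closer neighbour the medians were 247 bp (244 to 251 bp) for the 9732 GATA1-only and 357 bp (352 to 364 bp) for the 4778 shared intervals. Isolation went with greater width for GATA1-only, shared and TAL1-only intervals alike, the last with 248 bp (238 to 257 bp) where a neighbour was closer. Together the isolated GATA1-only intervals covered 1.96 Mb, or 26.4% of the 7.45 Mb under GATA1 intervals.

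Very narrow intervals were far more frequent among isolated GATA1-only than among isolated shared intervals, and more frequent still among GATA1-only intervals with a closer neighbour. At most 150 bp, about the length of DNA on 1 nucleosome, were listed for 952 isolated GATA1-only intervals (15.8%, 14.9 to 16.8%), against 58 isolated shared intervals (2.58%, 1.96 to 3.32%). It was 23.3% (22.5 to 24.2%) for GATA1-only intervals with a closer neighbour and 10.0% (8.10 to 12.2%) for isolated TAL1-only intervals. The lists' smallest width, 85 bp, was found for 174 isolated GATA1-only intervals (2.90%) and for 2 isolated shared ones (0.09%). Among GATA1-only intervals with a closer neighbour its share was 3.25%. At the wide end, 15.8% of isolated GATA1-only intervals (14.8 to 16.7%) and 26.9% of isolated shared intervals (25.1 to 28.8%) were over 500 bp. Over 700 bp the shares came to 4.33% (3.83 to 4.87%) and 5.69% (4.77 to 6.72%). An interval was counted as shared only where both lists gave the same start and end. A GATA1 interval that overlapped a TAL1 interval with other edges was therefore counted as GATA1-only with a closer neighbour. Merging of overlapping GATA1 and TAL1 peaks before deposition would by itself widen shared intervals; its part in these widths was not tested.

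**Figure D1:**
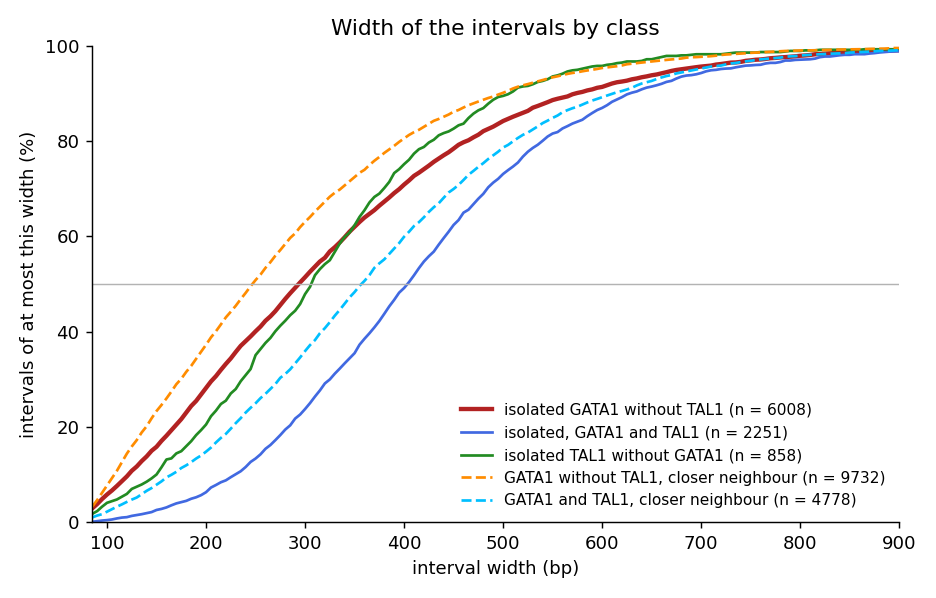
Share of intervals (vertical axis, %) of at most a given width (horizontal axis, bp) for 5 classes of interval, with solid lines for isolated classes and dashed lines for intervals with a closer neighbour. The line of the 6008 isolated GATA1-only intervals crosses 50% at 294 bp, left of the isolated shared line at 404 bp and right of the GATA1-only line with closer neighbours at 247 bp.

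The 5 widest isolated GATA1-only intervals lay on chromosomes 1, 2, 5 and 11. The widest, chr1:151253667-151254829 at 1q21.3, measured 1163 bp, and its nearest other interval was 87.9 kb away. Those at chr2:44394932-44396083 (2p21) and chr5:89704942-89706093 (5q14.3) measured 1152 bp each, with nearest intervals at 122.8 kb and 29.5 kb. They were followed by chr11:66079400-66080526 at 11q13.2 with 1127 bp and a gap of 17.2 kb, and by chr5:94890081-94891181 at 5q15 with 1101 bp and a gap of 91.1 kb. None of the 5 had another interval of either list within 17.2 kb.

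Among isolated GATA1 intervals, 6008 of 8259 were without TAL1 (72.7%, 71.8 to 73.7%), against 9732 of 14510 GATA1 intervals with a closer neighbour (67.1%, 66.3 to 67.8%). The share varied with width. Of the 1010 isolated GATA1 intervals of 85 to 150 bp, 94.3% were without TAL1 (92.6 to 95.6%), and of those of 251 to 300 bp 74.5% (71.5 to 77.3%). At 501 to 700 bp it was 59.0% (56.1 to 61.9%). The order turned at the top, with 67.0% (62.1 to 71.7%) of the 388 intervals over 700 bp being without TAL1.

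At equal width the isolated intervals were without TAL1 more often than the others in each of the 8 width classes. The difference ran from 5.05 percentage points at 251 to 300 bp, where the 95% intervals met only at their ends, to 17.6 points over 700 bp. In that widest class 67.0% of isolated intervals and 49.4% of intervals with a closer neighbour (44.7 to 54.2%) were without TAL1. Isolated intervals were wider, and wide intervals more often carried TAL1. The overall difference was 5.67 points. If overlapping peaks were merged before deposition, width itself follows in part from TAL1 status. A comparison at equal width does not separate them, and this was not tested. With the width classes weighted as in isolated intervals, 63.9% of intervals with a closer neighbour were without TAL1, which is 8.80 points below the isolated ones. Intervals with a closer neighbour can be parts of 1 enriched region, and their TAL1 status is then not independent. TAL1-only intervals also counted as neighbours, so the TAL1 list took part in the grouping whose TAL1 shares are compared. With GATA1 neighbours only, members numbered 6266, against 6008, and the share was not compared at that setting. The part of either in the overall difference or in that at equal width was not tested.

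**Figure D2:**
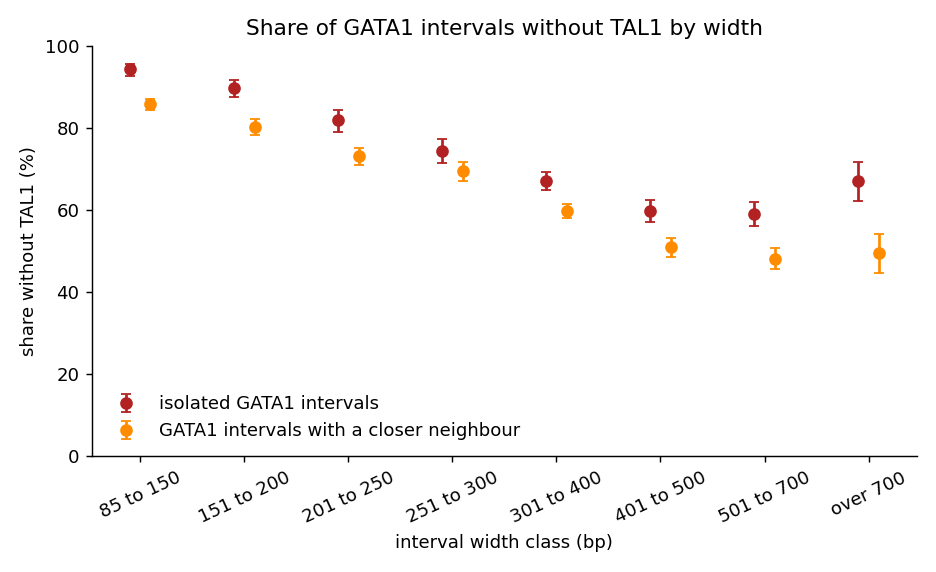
Share of GATA1 intervals without TAL1 (vertical axis, %) in 8 classes of width (horizontal axis, bp), for isolated GATA1 intervals in red and GATA1 intervals with a closer neighbour in orange, with exact 95% binomial intervals as bars. The isolated intervals lie higher in every class, from 94.3% against 85.8% in the narrowest to 67.0% against 49.4% in the widest.

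The same counts seen from the other side show that wide GATA1-only intervals stood alone more often. Of GATA1-only intervals of 85 to 150 bp 29.5% were isolated, of those of 301 to 400 bp 40.7%, and of those over 700 bp 53.9%. The members' median width was 295 bp (286 to 302 bp) for nearest gaps of 12.5 to 25 kb, 303 bp (291 to 313 bp) at 25 to 50 kb and 296 bp (283 to 308 bp) at 50 to 100 kb. Farther out it was 274 bp (254 to 291 bp) at 100 to 200 kb, below the overall median, 281 bp (258 to 310 bp) at 200 to 500 kb and 288 bp (237 to 325 bp) over 500 kb. The isolated shared intervals had medians of 415 bp (405 to 431 bp) at 12.5 to 25 kb and 333 bp (309 to 355 bp) at 200 to 500 kb.

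The choice of members sets a floor of 12.5 kb on the empty stretches beside them. The nearest other interval was a median of 33.2 kb away (32.2 to 34.2 kb), and the interval on the other side 109.1 kb (105.2 to 113.0 kb). The farther gap was 2.53 times the nearer one at the median, and over 12.8 times in the 10% most lopsided members. The nearest TAL1 interval lay a median of 73.0 kb away (70.8 to 75.2 kb). Isolated shared intervals had nearly the same nearest distance, 34.1 kb (32.6 to 36.3 kb), while isolated TAL1-only intervals lay farther out at 45.3 kb (40.5 to 49.4 kb).

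**Figure D3:**
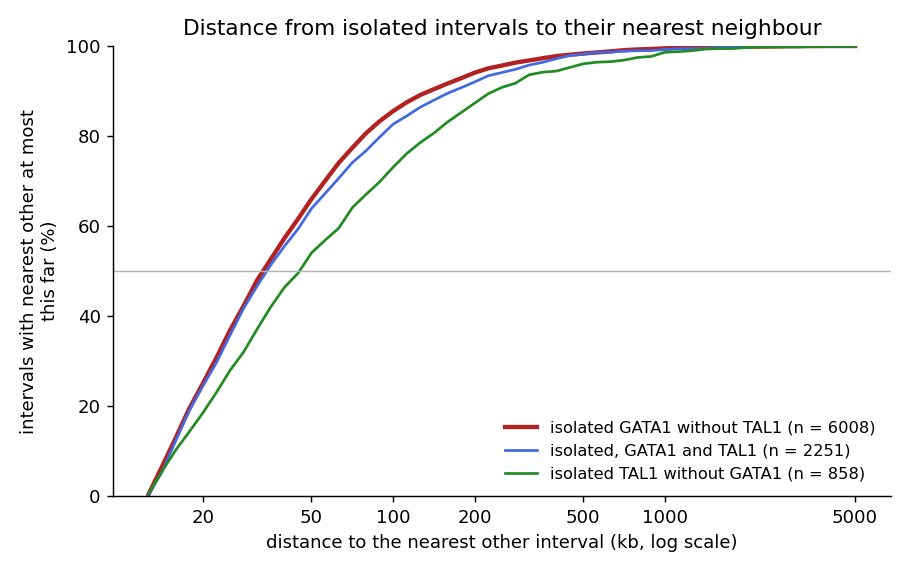
Share of isolated intervals (vertical axis, %) whose nearest other interval lies at most a given distance away (horizontal axis, kb, log scale), for the 3 classes of isolated intervals. All lines start at 12.5 kb because of the choice of members, and the lines of isolated GATA1-only and isolated shared intervals cross 50% at 33.2 and 34.1 kb.

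How far an isolated GATA1 interval stood from the next one made little difference to its TAL1 status up to 100 kb. Without TAL1 were 73.3% (71.7 to 74.9%) at nearest gaps of 12.5 to 25 kb, 73.5% (71.6 to 75.2%) at 25 to 50 kb and 73.6% (71.3 to 75.7%) at 50 to 100 kb. The share was 70.9% (67.5 to 74.2%) at 100 to 200 kb and 64.7% (59.7 to 69.4%) at 200 to 500 kb. Over 500 kb it was 70.6%, but with 143 intervals its 95% interval (62.4 to 77.9%) holds all the other values. The lower share at 200 to 500 kb rests on 253 members and 138 shared intervals.

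Over 500 kb from any other interval there were 101 members, and 32 were over 1 Mb away. The most isolated, chr9:27482678-27483123 at 9p21.2 (446 bp), had its neighbours 6790 kb before and 5069 kb after it. The next was chr3:81762144-81762560 at 3p12.2 (417 bp), with gaps of 4477 and 3791 kb. A 683 bp interval at 8q24.12, chr8:120844858-120845540, had gaps of 3070 and 2850 kb, and chr20:13619457-13619925 at 20p12.1 (469 bp) gaps of 4489 and 2833 kb. The fifth, chr3:396104-396321 at 3p26.3 (218 bp), had no interval towards the chromosome end and the next one 2756 kb away. Of the 9 flanking intervals of these 5 members, 8 were GATA1-only and 1 was shared. K562 has gained and lost chromosome segments, and copy number was not measured here, so a stretch with few intervals and a stretch with fewer copies cannot be told apart.

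The neighbours of the members were somewhat more often GATA1-only and less often shared than the lists as a whole. The nearest other interval was GATA1-only for 66.1% of members (64.9 to 67.3%), shared for 25.8% (24.7 to 27%) and TAL1-only for 8.02% (7.35 to 8.74%). Of all intervals 63.8% were GATA1-only, 28.5% shared and 7.65% TAL1-only. Among members with a neighbour on both sides, TAL1 was listed in both flanking intervals for 11.9% (11.1 to 12.8%) and in neither for 43.8% (42.6 to 45.1%). For isolated shared intervals these shares were 13.8% (12.4 to 15.3%) and 40.3% (38.2 to 42.3%), and for isolated TAL1-only intervals 16.7% (14.3 to 19.4%) and 37.3% (34.0 to 40.6%).

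Members often followed one another along the chromosome, but they were the nearest interval of other isolated classes about as often. Of the 6008, 4041 (67.3%) were next to another member with no other interval between, and the nearest interval was itself isolated for 63.0% (61.8 to 64.3%), against 65.1% for isolated shared, 65.5% for isolated TAL1-only and 37.0% for all intervals. Isolation raises this share in every such class, since an isolated interval has by definition no close neighbour on the side that both face. There were 104 unbroken runs of 5 or more members, and runs of other classes were not counted. The longest held 10 members over 3904 kb at 7q21.3 (chr7:92891842-96795898), with widths of 159 to 489 bp and nearest gaps of 18.2 to 609.7 kb. The next held 9 members within 873.8 kb from 6p24.2 into 6p24.1 (chr6:10886940-11760693), with widths of 88 to 605 bp and nearest gaps of 18.2 to 144.1 kb.

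Isolated GATA1-only intervals were spread over 717 of 851 cytogenetic bands, against 754 bands with any GATA1 interval, and in 29 bands they were the only intervals. Over the 41 chromosome arms, leaving out centromeric and heterochromatic bands with 35 members, their density averaged 2.12 per Mb. The densest arm was 19p with 6.05 members per Mb, followed by 19q with 4.53 and 17q with 3.81. The sparsest was 13q with 0.784, followed by Xq with 0.824 and 9p with 0.888 members per Mb. Highest and lowest arm differed by 7.72 times, against 11.8 times for all GATA1 intervals. The order of the arms was close to that of all GATA1 intervals (Spearman rho = 0.91 over 41 arms of the same libraries, of which the members are part). On 6p, with 20.9 GATA1 intervals per Mb the second densest arm after 19p, 17.3% of GATA1 intervals were members, and on 18p 17%. The share was 43.8% on 17p and 41.9% on 13q. The choice of members ties this share to density, since fewer intervals can stand alone where they are crowded (Spearman rho = -0.81 over the same arms). Arms of like density still differed in it. With 5.86 GATA1 intervals per Mb the share was 43.8% on 17p, and with 5.66 it was 30.1% on 2q. With 12.6 per Mb it was 17% on 18p, and with 12.5 it was 25.8% on 22q. What lies behind these differences was not tested.

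The share of isolated GATA1 intervals without TAL1 varied less, from 56.3% on Xp (46.2 to 66.1%) to 79.0% on 6q (73.9 to 83.5%). For 35 of 41 arms the 95% interval held the overall 72.7%. Besides Xp, the arms 14q (63.3%, 55.7 to 70.4%) and 22q (65.1%, 57.3 to 72.3%) lay below it, and besides 6q the arms 7q (78.3%, 73.5 to 82.6%) and 1p (76.8%, 73.1 to 80.3%) lay above. With 41 intervals at 95%, some can fall outside through counting alone. Whether this accounts for the 3 arms below and 3 above was not tested. Across arms the share showed little relation to the density of GATA1 intervals (Spearman rho = 0.20, n = 41 arms of the same libraries).

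**Figure D4:**
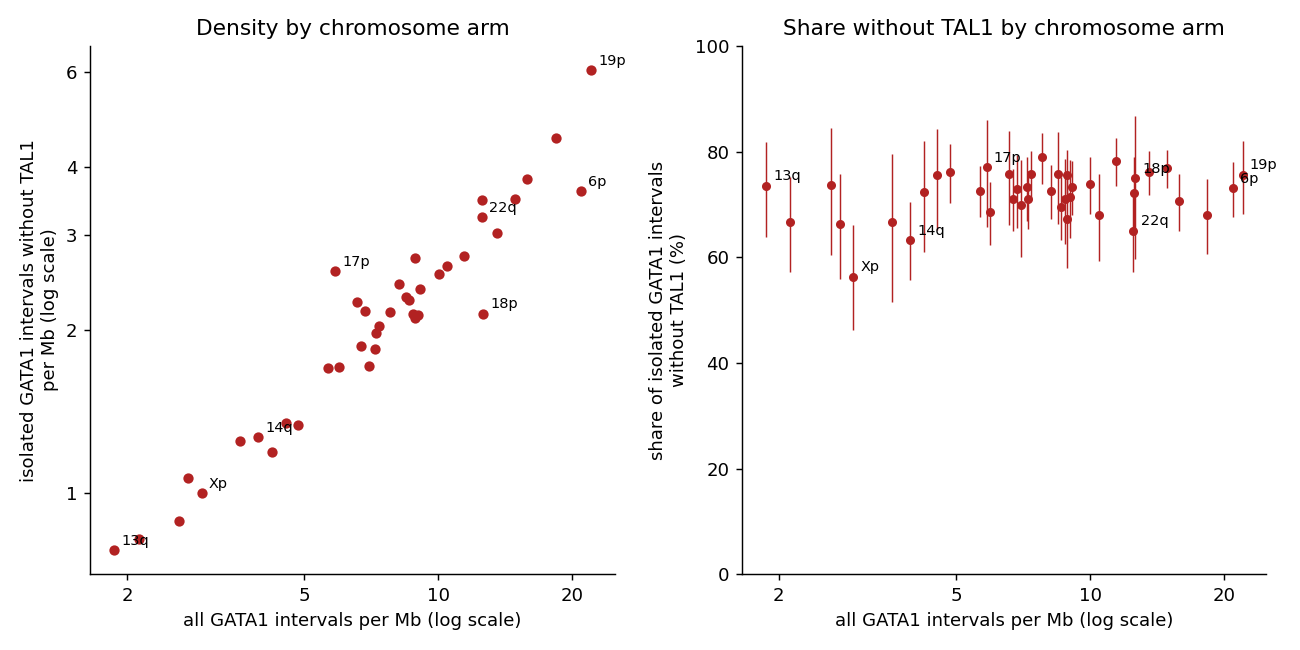
Left, density of isolated GATA1-only intervals per Mb (vertical axis, log scale) against that of all GATA1 intervals (horizontal axis, log scale), 1 point for each of 41 chromosome arms. Right, share of isolated GATA1 intervals without TAL1 (vertical axis, %) against the same density, with exact 95% binomial intervals. The densities climb together from 13q to 19p, while the share stays between 56.3% on Xp and 79.0% on 6q.

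Members on the arms of chromosome 19 had the greatest median widths, at 357 bp (302 to 403 bp) on 19q and 344 bp (284 to 380 bp) on 19p. The 95% interval lay above the overall 294 bp on 19q and on 14q (295 to 355 bp), while that of 19p held it. Of 121 members on 19q, 38 (31.4%) were over 500 bp, and on 19p 30 of 121 (24.8%), against 15.8% of all members. The narrowest medians were those of 10p (239.5 bp, 196 to 288 bp), 5p (243 bp, 206 to 349 bp) and 10q (256.5 bp, 229 to 290 bp). Isolated shared intervals had medians of 389 bp on 19q, 354 bp on 19p and 384 bp on 10p, which is not the order of the members. On 19p members and isolated shared intervals were nearly alike in width, at 344 and 354 bp.

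Giemsa staining, which is darkest in gene-poor chromatin that replicates late, went with the density of members as it did with that of all GATA1 intervals. Isolated GATA1-only intervals numbered 2.78 per Mb in unstained bands, 2.99 per Mb in the faintest stained class, 1.93 and 1.41 per Mb in the middle classes and 0.788 per Mb in the darkest. All GATA1 intervals numbered 10.5, 12.4, 7.65, 4.80 and 2.68 per Mb in the same classes. Without TAL1 were 73.4% of isolated GATA1 intervals in unstained bands (72.1 to 74.6%), 73.9% in the faintest stained (70.8 to 76.7%), 70.1% (67.3 to 72.8%) and 71.8% (68.5 to 74.9%) in the middle classes and 72.1% in the darkest (68.1 to 75.8%). The nearest other interval was a median of 32.1 kb from a member in unstained bands and 44.1 kb in the darkest.

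Single bands, with smaller counts, covered a wider range than the arms. The bands with most members were 19p13.2 with 42 of 134 GATA1 intervals, 19p13.11 with 37 of 89, and 19p13.3 and 1p32.3 with 35 each, of 172 and 116. Among bands with 10 or more members, the density reached 10 members per Mb at 19p13.11 and 6p24.2. Among the same bands, members made up 11 of 18 GATA1 intervals at 5q12.3 (61.1%), 14 of 23 at 7q21.3 (60.9%) and 21 of 36 at 10q21.3 (58.3%). Among bands with 60 or more GATA1 intervals the lowest shares were 3 of 66 at 16q24.1 (4.55%), 5 of 69 at 18p11.22 (7.25%), 8 of 105 at 1q25.3 (7.62%), 7 of 81 at 6p25.2 (8.64%) and 14 of 153 at 6p22.1 (9.15%). A floor of 10 members lets a band with few GATA1 intervals in only where its share is high. A floor of 60 GATA1 intervals favours bands rich in intervals, where fewer can stand alone. These extremes therefore follow in part from the floors, and the high and low shares are not directly comparable. In 37 bands with GATA1 intervals, members numbered 0. The band 6p22.1, known for its histone gene cluster, had 0 isolated shared intervals beside its 14 members.

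Bands that hold genes of erythroid biology contained members at about the overall rate. No hg19 gene annotation was used, so the genes are placed by their textbook cytogenetic band. A band spans many genes, and a count for it says nothing of the named gene. In 19 such bands, 290 of 1160 GATA1 intervals were members (25%, against 26.4% of all GATA1 intervals), and 73.2% of isolated GATA1 intervals were without TAL1, against 72.7% over the whole lists. Members were found in 18 of the 19 bands. Their density in these bands was 3.51 per Mb, against 2.12 per Mb over the arms, and that of all GATA1 intervals was 14.04 against 8.05 per Mb.

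Among the bands of globin genes, which encode the chains of hemoglobin, 11p15.4 with the beta-like cluster held 28 members among 132 GATA1 intervals and 16p13.3 with the alpha-like cluster 29 among 91. For the genes of the GATA1 and TAL1 assembly, the band of GATA1 itself (Xp11.23) held 14 members and 8 isolated shared intervals, and that of TAL1 (1p33) 7 and 4. The band of LMO2, the bridging protein (11p13), held 19 members and 2 isolated shared intervals, and that of LDB1, which dimerises to link distant elements (10q24.32), 7 of each. At 3q21.3, the band of GATA2, which GATA1 replaces during erythroid maturation, there were 14 and 5.

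Other regulators showed a similar range. The band of MYB (6q23.3), which keeps progenitors dividing, held 17 members and 5 isolated shared intervals. That of BCL11A (2p16.1), a repressor of fetal globin, held 9 and 3, and that of RUNX1 (21q22.12), needed for the first blood stem cells, 11 and 1. The bands of NFE2 (12q13.13), GFI1B (9q34.13), ZFPM1 (16q24.2) and FLI1 (11q24.3) held 15, 9, 6 and 3 members among 75, 30, 34 and 16 GATA1 intervals. Of the receptors, the band of KIT (4q12), the stem cell factor receptor, held 14 members among 42 GATA1 intervals (33.3%). That of the erythropoietin receptor EPOR (19p13.2) held 42 among 134 (31.3%) and that of the transferrin receptor TFRC (3q29) 27 among 137 (19.7%). The band of SLC4A1 (17q21.31), the anion exchanger of the red cell membrane, held 19 members beside 13 isolated shared intervals. The band without a member was Xp11.21, that of ALAS2, which encodes the first enzyme of heme synthesis in red cells. Of its 5 GATA1 intervals 0 were members and 3 were isolated shared intervals, a count too small to set the band apart.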

How the data were processed

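Each of the 2 deposited lists gives chromosome, start and end of every interval, in 3 columns without a header. Nuclei were digested with micrococcal nuclease before precipitation, per the labels' protocols. The submitters' processing notes name Trimmomatic, Bowtie2, MACS2, deepTools and the build hg19, and give neither versions nor thresholds. The step that gave both lists common intervals is not given in the sources used.

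Distinct rows were pooled, 4 mitochondrial TAL1 intervals were left out, and gaps were measured between edges in Python 3.11.15 with numpy 2.4.6, pandas 2.3.3 and scipy 1.17.1. The count of 6008 was the same with bedtools 2.31.1, and the code was tested on simulated lists. Bands are those of circlize 0.4.16 for hg19, assigned by interval centre. Positions are counted from 1. Figures used matplotlib 3.10.9.

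The members, classes and gene bands were chosen with earlier results of these data known. Named intervals are the 5 most isolated, the 5 widest and the 3 nearest to the limit on each side. Arms and bands named, and the remark on chromosome 19, were chosen after their values were seen. Motifs, base composition and gene positions need an hg19 genome or annotation and were not analysed here.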

Additional observations from a re-analysis of the deposited data

How the results depend on the processing

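The number of isolated GATA1-only intervals was 8807 with an isolation distance of 5 kb, 3812 with 25 kb and 2044 with 50 kb, against 6008. The share of GATA1-only intervals that stand alone was 56.0% at 5 kb, 24.2% at 25 kb and 44.6% among intervals of at least the median width, against 38.2%. A longer distance leaves fewer intervals by construction. The share without TAL1 among isolated GATA1 intervals was 71.5% at 50 kb, 69.0% at 100 kb and 60.2% where both lists were limited to intervals of at least 298 bp, against 72.7%. The last setting changes both the widths and which intervals stand alone, and the part of each was not tested. The alternatives for this share, the 23 chromosomes left out in turn and the limit to members with a neighbour on both sides were added after the data were seen. With each chromosome left out the share was 72.2 to 73.0% and the median width 292 to 296 bp. In all, 55 of 63 values stayed within their 95% interval, or for counts within 1.5 times. The 63 include 23 values with a chromosome left out for this share and 23 for the median width, none of which moved. The 8 that moved were all among the other settings. The alternatives for promoters, gene bodies, motifs and base composition were not run, since they need an hg19 genome or annotation. No paired analysis was possible because each antibody and condition has 1 library. Depth is unknown, so a TAL1 signal too weak to be listed cannot be told from none.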
